A study of Mus musculus with 4 samples.

Results

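B cells were described in single-cell RNA sequencing of transplanted mouse hearts, chosen by their UMI counts (unique molecular identifiers, 1 for each RNA molecule captured). A cell was taken as a B cell when it held at least 2 UMIs of Cd79a, at least 1 UMI of Cd79b or Ms4a1, and 0 UMIs of the T cell gene Cd3e, the macrophage gene C1qa and the endothelial gene Cdh5. Of 53824 deposited cells, 44626 had over 200 genes and under 20% of UMIs from mitochondrial genes, and 185 of these were B cells, 0.415% (exact binomial 95% interval 0.357 to 0.479%). Male mice of 8 to 10 weeks were used, and grafts were placed in the abdomen of C57BL/6J recipients and harvested at day 5. The 2 allogeneic grafts came from BALB/c donors (strain label Balb/C) and the 2 syngeneic grafts from C57BL/6J donors, so every recipient had the C57BL/6J genotype and no group was left without surgery. B cells in an allogeneic graft could be of recipient or donor origin, and the 2 sources were not separated here.

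The deposited matrix pooled all cells, and a number at the end of each barcode divided them into 4 libraries. The names did not tie a library to a graft, so the 4 libraries were treated as parts of 1 pooled sample, allogeneic and syngeneic grafts were not compared, and no p-value was computed. Intervals below cover counting error only, and UMIs of the same cell are not independent. Library 1 held 33 B cells, library 2 held 32, library 3 held 63 and library 4 held 57, which were 0.320%, 0.243%, 0.640% and 0.504% of the kept cells of each library. The B cells contributed 898354 UMIs outside mitochondrial genes, with a median of 3825 UMIs (range 1057 to 34269) and 1551 genes per cell. Median UMIs per B cell were 4625, 3539.5, 3474 and 4162 in libraries 1 to 4.

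The exclusion genes removed nearly as many cells as they left. Cd79a with Cd79b or Ms4a1 was met by 353 cells, and 168 of them were left out: 116 held C1qa, 66 held Cdh5 and 10 held Cd3e, with overlaps. The share left out was 28.3% in library 1, 40.7% in library 2, 45.7% in library 3 and 58.4% in library 4. The number of B cells per library therefore depended on these genes, and before the exclusion libraries 1 to 4 had 46, 54, 116 and 137 cells. A group of 60 cells fell out through exactly 1 C1qa UMI alone, 38 of them in library 4. Their Cd79a level was 2431 CPM (UMIs of the gene for every 1000000 UMIs outside mitochondrial genes), against 2247 CPM in the B cells, and their Igkc level was 8513 CPM against 8373 CPM. At the Cd79a threshold, 2 cells had exactly 2 UMIs, with Igkc at 5355 CPM, and the 4 cells with exactly 1 UMI that met the other conditions held 9226 CPM of the myeloid gene Lyz2.

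A simulated-doublet score marked 3 of the 185 B cells. In 6 B cells over 2% of UMIs came from the marker list of another cell type: 4 carried fibroblast genes, 2 in library 1 and 1 each in libraries 3 and 4, and 2 in library 2 carried granulocyte genes. These 6 cells had a median of 19891 UMIs. Barcodes were shared between 2 libraries 308 times, 5 times by a B cell, and in 0 of these 5 was the other cell a B cell.

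B cells are lymphocytes that recognise antigen through the B cell receptor, a membrane immunoglobulin of heavy and light chains held in a complex with the signalling chains CD79A and CD79B. They mature in the bone marrow, circulate through spleen and lymph node follicles, and display captured antigen to CD4 T cells on MHC class II molecules. In transplantation they are known as the source of donor-specific antibody and as antigen-presenting cells, and the normal heart holds a small resident and passing B cell pool.

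The rule genes chose the cells and are given as a description. Cd79a (ENSMUSG00000003379, chr7:24897381-24902197, plus strand, GRCm38 with GENCODE M21 names) was at 1971, 2654, 2712 and 1910 CPM in libraries 1 to 4. Cd79b was at 846 CPM over all B cells, with a UMI in 93.5% of them. Ms4a1, which encodes CD20, was at 492 CPM and had a UMI in 32 of 33, 16 of 32, 55 of 63 and 45 of 57 B cells of libraries 1 to 4.

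Genes of B cell identity outside the rule were present in most cells, and the label held. Ly6d, a surface marker of B lineage cells, was at 1088 CPM (95% Poisson interval 1020 to 1158), against 0.163 CPM in T cells, 0.349 CPM in macrophages, 2.41 CPM in endothelial cells and 0, 0, 2.80 and 193 CPM in the dendritic cells of libraries 1 to 4, where 2 of 60 cells held its UMIs. The B lineage transcription factors Ebf1 and Pax5 were at 1325 and 238 CPM, and Ebf1 was also at 282 CPM in endothelial cells. Pou2af1 (the coactivator OBF1) was at 279 CPM, Bank1 (an adaptor below the receptor) at 424 CPM and Fcmr (the Fc receptor for IgM) at 510 CPM. Of 6 identity genes (Ly6d, Pax5, Ebf1, Pou2af1, Bank1 and Fcmr), at least 4 had a UMI in 163 of the 185 cells. As a gauge of free RNA, Cd79a UMIs occurred in 0.825%, 2.54%, 1.86% and 0% of endothelial cells of libraries 1 to 4. Library 4 had only 263 endothelial cells, and Ms4a1 and Ighd were also at 0% there. Ighm, Igkc, Ly6d and Cd79b ran the other way and were detected most often in library 4. Ighm was in 8.37% of its endothelial cells, and Ly6d in 2.66% against 0.238% to 0.642% in the other libraries. These genes gave no common order of the libraries. Endothelial cells had median depths of 5682 to 10204 UMIs per library.

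**Figure D1:**
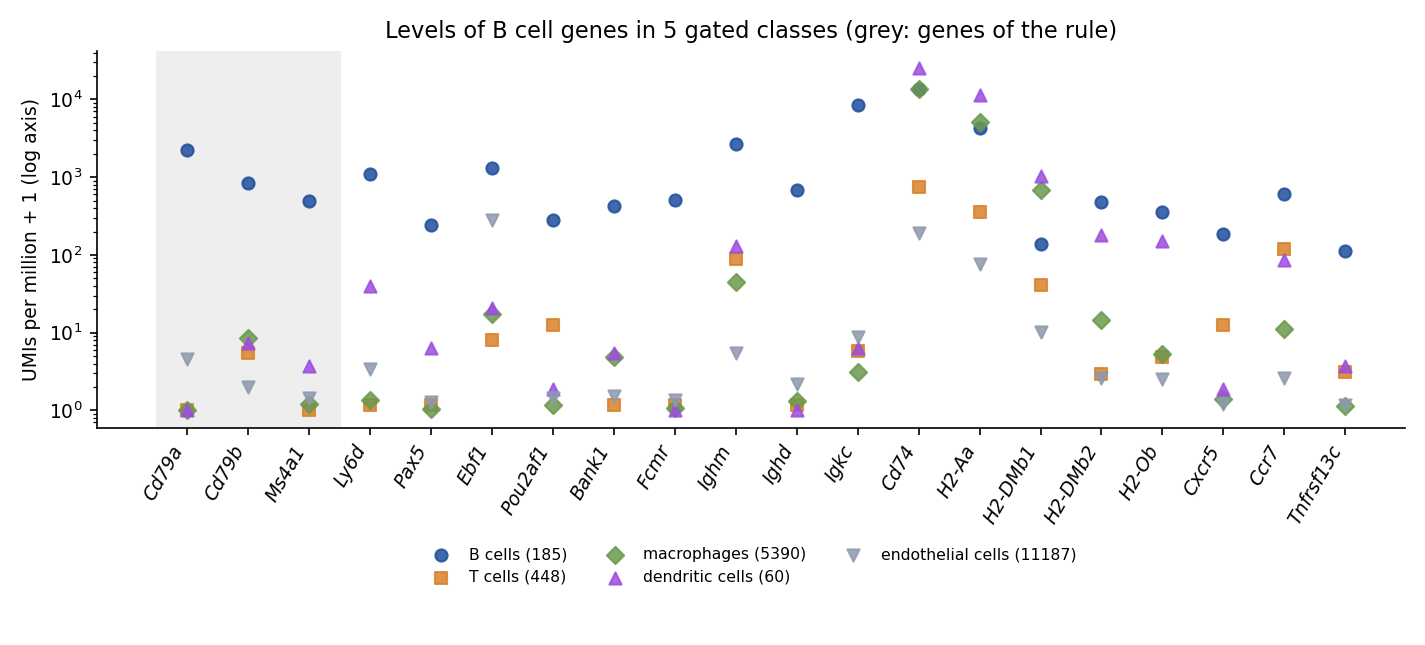
Levels of 20 genes, in CPM plus 1 on a log axis, in B cells, T cells, macrophages, dendritic cells and endothelial cells gated on marker genes, with each point the pooled level of the class. B cell identity and immunoglobulin genes sit far above the other classes, whereas Cd74 and H2-Aa are at similar or higher levels in macrophages and dendritic cells, and H2-DMb1 is lower in B cells than in both.

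The unswitched heavy chain genes Ighm and Ighd were in most cells and switched isotypes were rare. Ighm, the constant gene of IgM (chr12:113418558-113422730), was at 2689 CPM (2583 to 2799) and had a UMI in 99.5% of B cells. Ighd, the constant gene of IgD just downstream, was at 689 CPM (636 to 746) and had a UMI in 88.6% (83.2 to 92.8%). At an equal depth of 1000 UMIs per cell the Ighd share was 56.2%. Ighm and Ighd were detected together in 163 cells, Ighm without Ighd in 21 and Ighd without Ighm in 1. Ighd was at 654, 704, 868 and 566 CPM in libraries 1 to 4. UMIs of Ighg1, Ighg2b, Ighg2c, Ighg3 or Igha occurred in 7 cells, and in 0 of 185 cells did switched isotypes outnumber Ighm plus Ighd, which allows a share of up to 1.62% of cells with such counts. Ighe was at 0.

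Kappa light chains prevailed. Igkc, the single kappa constant gene (chr6:70726435-70726966), was at 8373 CPM (8185 to 8564). The lambda constant genes Iglc1, Iglc2 and Iglc3 were at 331, 604 and 352 CPM. Iglc2 and Iglc3 are near-identical, so the split between those 2 is uncertain. Kappa UMIs outnumbered lambda UMIs in 171 cells, lambda outnumbered kappa in 13, and 1 cell had equal numbers, so 92.4% (87.6 to 95.8%) were kappa cells. The kappa share was 87.9%, 93.8%, 95.2% and 91.2% in libraries 1 to 4, with intervals that overlapped. Chains were not cleanly exclusive in the counts: 133 of the 171 kappa cells held lambda UMIs, at a median of 2 against a median of 35 Igkc UMIs, and 8 of the 13 lambda cells held no Igkc UMI. Lambda cells had a median of 30 lambda UMIs. Variable segments gave 20 UMIs of Igkv, 8 of Iglv and 17 of Ighv genes in all B cells, too few to compare segments.

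**Figure D2:**
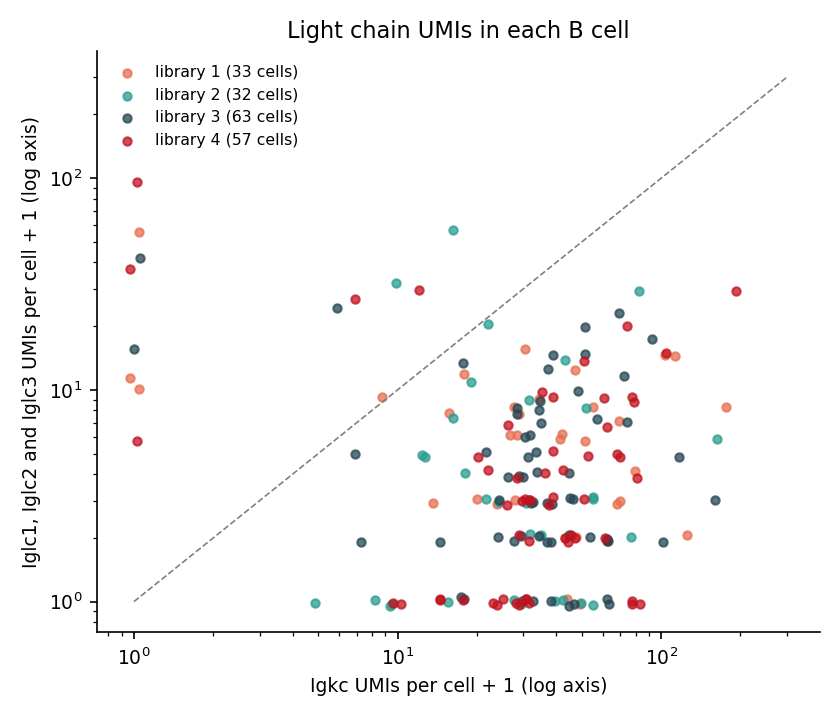
UMIs of Igkc (horizontal) and of the 3 lambda constant genes together (vertical) in each of the 185 B cells, both plus 1 on log axes with slight horizontal and vertical jitter, coloured by library. The dashed line marks equal numbers, with 171 cells below it and 13 above, and all 4 libraries appear on both sides.

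Receptor signalling and coreceptor genes were compared with those of 448 T cells, 5390 macrophages and 60 dendritic cells, each gated on its own markers. Levels of the other class were weighted so that each library counted as it did among the B cells, and a gene was called when the levels with 10 CPM added differed at least 2-fold and at least 10% of cells on the higher side held a UMI. Against T cells, 5.84% of 7208 genes were called higher in B cells and 7.41% lower. Against macrophages the shares were 7.35% and 11.0% of 8287 genes. Against dendritic cells, where libraries 1 and 3 alone held enough cells (96 B cells and 47 dendritic cells), they were 11.2% and 11.1% of 8418 genes. Genes reached a comparison through the class or library where they were high. The counts and medians of lists below therefore describe them and are no support for a difference of the list.

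All 16 identity genes were called higher than in T cells, 15 of 16 than in macrophages and 13 of 16 than in dendritic cells. The shares over all genes tested were 5.84%, 7.35% and 11.2%. Of 15 BCR signalling genes, 14 were tested against T cells and 10 were called higher than in T cells, among them the kinase Syk (301 CPM against 8.59 CPM, log2 fold 4.06) and the adaptor Blnk (159 CPM against 0 CPM). Against macrophages 5 were called higher and 1 lower, beside 7.35% and 11.0% of all genes tested. Prkcb, the protein kinase C isoform that relays the signal to NF-kB, was higher by a log2 fold of 1.40, and Blnk by 1.23. With 50 CPM added both were under 2-fold, at 0.986 and 0.897, and without library 4 the Blnk value was 0.656. The median log2 fold of the tested signalling genes was 1.51 against T cells and 0.65 against macrophages, where the medians over all genes were -0.07 and -0.02.

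Inhibitory receptors differed between B cells and macrophages. Cd22 and Siglecg, sialic acid receptors that restrain BCR signals, were at 96.8 and 163 CPM and were called higher than in macrophages. Against dendritic cells Siglecg was within 2-fold, at 179 CPM against 157 CPM in libraries 1 and 3. Fcgr2b, the inhibitory IgG receptor, was at 95.7 CPM in B cells and was lower than in macrophages (492 CPM, log2 fold -2.25) and, in libraries 1 and 3, than in dendritic cells (52.9 CPM against 166 CPM, log2 fold -1.49). Pirb was lower too (67.9 CPM against 362 CPM, log2 fold -2.26). Lair1 and Cd300a were likewise called lower, at 22.3 and 7.79 CPM in B cells.

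Of 12 B lineage transcription factors, 8 were called higher than in T cells, 10 than in macrophages and 11 than in dendritic cells. The shares over all genes tested were 5.84%, 7.35% and 11.2%. Ets1, which T cells share with B cells, was at 564 CPM, a log2 fold of 4.26 over macrophages and of 0.07 over T cells. Irf8 was the factor called lower than in dendritic cells (309 CPM in the B cells of libraries 1 and 3 against 799 CPM, log2 fold -1.35).

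The largest differences named the classes. Against T cells the lowest genes in B cells included the receptor chain Trbc2 (8.91 CPM against 1560 CPM) and Cd3g. The effector genes Nkg7, Ifng and Gzmb were also among them, the last at 37.8 CPM against 1605 CPM. Against macrophages the chromatin organiser Satb1 stood among the 10 highest (626 CPM against 5.51 CPM), and Spp1, Ms4a7 and Pf4 among the 10 lowest. Against dendritic cells Il1b was lowest, at 11.0 CPM against 3393 CPM, beside Cd209a, which the dendritic cell gate used. The B cell and comparison gates fixed the order of their own genes, Cd79a, Cd79b, Ms4a1, Cd3e, Cd3d, Cd3g and the C1q genes among them.

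MHC class II genes made up 2.64% of B cell UMIs (2.60 to 2.67%), the range over cells being 0.191 to 5.94%. The share was 2.52%, 1.86%, 3.18% and 2.57% in libraries 1 to 4, lowest in library 2, and 2.96% without the 6 cells rich in other lists. Cd74, the invariant chain, was at 13687 CPM, and the classical chains H2-Aa, H2-Ab1 and H2-Eb1 at 4326, 3546 and 3047 CPM. All 11 genes of the list were called higher than in T cells, against 5.84% of all genes tested. Against macrophages the classical genes were within 2-fold, with log2 folds of 0.26 for Cd74 and -0.03 for H2-Aa. The macrophage levels differed by library, with H2-Aa at 6750, 260, 2663 and 5803 CPM and Cd74 at 16436, 1675, 6894 and 15354 CPM. In library 2 the class II genes made up 0.258% of macrophage UMIs, below the B cells of that library. Dendritic cells held more, with H2-Aa at 12087 CPM against 4882 CPM in the B cells of the same libraries (log2 fold -1.31), and H2-Ab1 and H2-Eb1 lower in B cells by log2 folds of -1.80 and -1.82.

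The peptide-loading genes followed another order. H2-DMb2 and H2-DMb1 encode alternative beta chains of the peptide exchanger H2-M, and H2-Oa with H2-Ob the modulator H2-O that restrains it in B cells. H2-DMb2 was at 472 CPM in B cells against 9.80 CPM in macrophages (log2 fold 4.61), and H2-Ob at 353 CPM against 3.56 CPM (log2 fold 4.74). H2-Oa was higher than in macrophages by a log2 fold of 3.76. H2-DMb1 ran the other way, at 139 CPM in B cells against 465 CPM in macrophages (log2 fold -1.67) and 1026 CPM in dendritic cells (log2 fold -3.13). Over dendritic cells H2-DMb2 and H2-Ob stayed higher, by log2 folds of 1.64 and 1.28, while H2-Oa was level at 0.00. With cells under 10% mitochondrial UMIs alone, the H2-Ob value over dendritic cells was 0.722, under 2-fold.

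**Figure D3:**
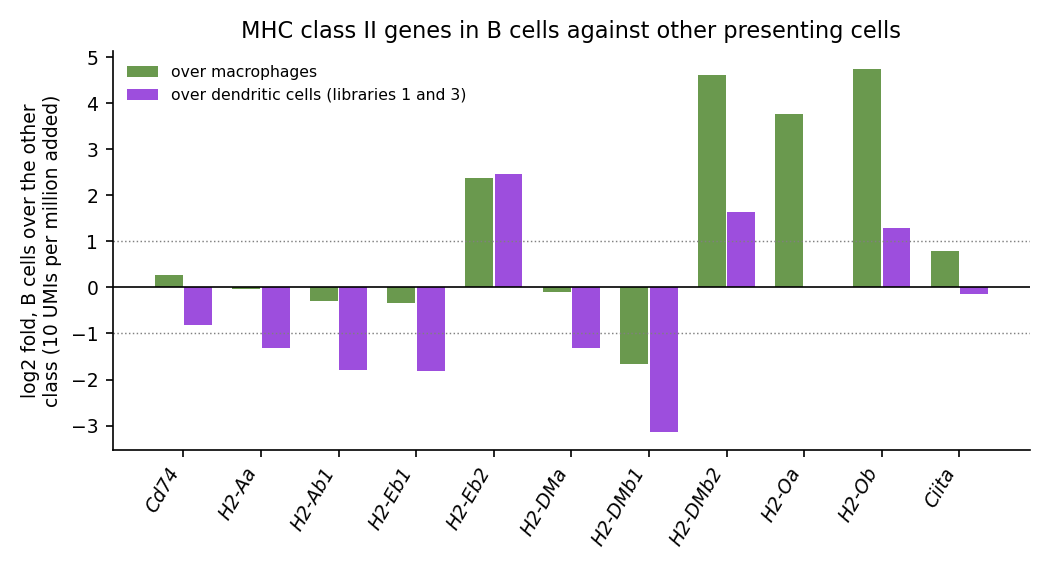
Log2 fold of 11 MHC class II genes in B cells over macrophages (green, 4 libraries) and over dendritic cells (purple, libraries 1 and 3), with 10 CPM added to each level and dotted lines at 2-fold. H2-DMb2 and H2-Ob are above 2-fold against both classes, H2-DMb1 is below in both, and H2-Aa, H2-Ab1 and H2-Eb1 are below 2-fold against dendritic cells alone.

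Costimulatory and activation genes were mixed. Cd86 was at 173 CPM, against 12.9 CPM in T cells and 264 CPM in all dendritic cells. In macrophages Cd86 was at 205, 213, 163 and 191 CPM in libraries 1 to 4. Cd80 had 0 UMIs in 898354 in B cells, which allows up to 3.34 CPM. Cd83 was at 456 CPM and Cd40, the receptor for T cell help, at 52.3 CPM. Cd69, an early activation antigen that holds lymphocytes in tissue, was at 356 CPM and was higher than in macrophages (log2 fold 3.15) and dendritic cells (3.07). T cells held Cd69 too, at 229, 107, 204 and 150 CPM in libraries 1 to 4. Ltb, which encodes lymphotoxin beta, was at 309 CPM, below 2-fold from T cells and higher than in macrophages by a log2 fold of 4.40. Il10 was at 6.68 CPM and Il6 at 17.8 CPM, with a UMI in 2.70% and 6.49% of B cells.

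Homing receptors of follicular B cells were detected. Cxcr5, the receptor that leads B cells to follicles, was at 186 CPM (159 to 216) with a UMI in 55.1% of cells, and Ccr7, the receptor for lymph node entry, was at 614 CPM with a UMI in 76.8%. Either was detected in 170 cells, 91.9%. Over T cells Cxcr5 was higher by a log2 fold of 3.68 and Ccr7 by 1.5. Itgal, the alpha chain of the lymphocyte integrin LFA-1, was lower (35.6 CPM against 165 CPM, log2 fold -1.94). Cxcr3, the receptor for Cxcl9 and Cxcl10, was at 7.79 CPM, with a UMI in 3 cells, all of library 4. Cxcl13, the ligand of Cxcr5, was at 0 in B cells, and at 0.673, 285, 4.84 and 0.171 CPM in the macrophages of libraries 1 to 4. Ccl21a, a ligand of Ccr7, was at 10.0 CPM in B cells and at 685, 46.5, 666 and 558 CPM in the endothelial cells of libraries 1 to 4.

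Among receptors of the survival factor BAFF, Tnfrsf13c (BAFF receptor) was at 110 CPM, Tnfrsf13b (TACI) at 47.9 CPM and Tnfrsf17 (BCMA, of plasma cells) at 1.11 CPM. The ligand genes Tnfsf13b and Tnfsf13 were at 7.79 and 0 CPM in B cells. By library Tnfsf13b was at 29.9, 0, 0 and 3.06 CPM in B cells and at 11.4, 2.07, 4.84 and 15.7 CPM in macrophages, with no common order. Bcl2 was at 81.3 CPM, lower than in T cells (249 CPM, log2 fold -1.5). Without weighting by library that value was -0.27.

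Genes of other B cell stages differed in how often they were detected. Fcer2a (CD23), a marker of follicular cells, or Cr2 (CD21), carried by follicular and marginal zone cells, had a UMI in 75 cells, 40.5%, and Fcer2a in 64. Vpreb3, high in immature and transitional cells, was at 134 CPM, while Rag1, Rag2, Dntt, Vpreb1 or Igll1 gave a UMI in 1 cell. Mzb1, expressed in marginal zone, B1 and plasma cells, was at 325 CPM. Cd5, a B1 marker, had a UMI in 1 cell, against 58.3% of T cells. Gcsam, a germinal centre gene, was at 0. Jchain, Prdm1, Sdc1 or Tnfrsf17 had a UMI in 9 cells, 4.86%, against 21.4% of endothelial cells, and Jchain, the joining chain of secreted IgM, gave 1 UMI in all. Tbx21 or Itgax, of T-bet-positive memory cells, had a UMI in 2 cells. Siglech, of plasmacytoid dendritic cells, was at 0 in 185 cells, which allows a share of up to 1.62% of cells with a UMI and sets no limit on cells expressing the gene.

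Cell cycle genes were low. Mki67 or Top2a had a UMI in 11 B cells, 5.95% (3.01 to 10.4%), against 47.8% of T cells, 25.9% of macrophages and 5.22% of endothelial cells, at median depths of 3825, 9018.5, 14940 and 6776 UMIs. These B cells numbered 1, 2, 3 and 5 in libraries 1 to 4. In T cells Top2a was at 95.6, 5.36, 125 and 339 CPM and Mki67 at 115, 0, 45.3 and 330 CPM, and in library 2 the Top2a level of B cells was 17.0 CPM, on few UMIs in both classes. Of 17 genes, 16 were tested and 14 were called lower than in T cells and 0 higher, against 7.41% and 5.84% of all genes tested. Top2a was at 10.0 CPM against 180 CPM (log2 fold -3.25) and Stmn1 at 33.4 CPM against 352 CPM (log2 fold -3.06).

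B cells of library 4 stood apart in genes of the interferon response. Of 25 genes in the list, 22 were tested and 21 were at least 2-fold higher in library 4 than in the B cells of the other libraries, against 7.32% of the 5997 genes tested, and 6.12% were called lower. As each comparison set 1 library against the others, members were low elsewhere: 16 of 19 tested were called lower in library 1 (5.20% of all genes), 18 of 19 in library 2 (10.3%) and 16 of 20 in library 3 (6.34%). The median log2 fold was 2.75 for the tested members and close to 0 for all tested genes. Members could pass the filter through library 4 alone, so this median is a description and no support for a difference. Gbp2, a guanylate-binding GTPase induced by interferon, was at 29.9, 33.9, 11.8 and 955 CPM in libraries 1 to 4. Zbp1, a sensor of nucleic acids, was at 15.0, 8.48, 3.95 and 444 CPM. Libraries 1 to 3 overlapped within their counting intervals for both genes, and library 4 lay above all.

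Further members were also highest in library 4. Ifi47, an immunity-related GTPase, was at 9.98, 25.4, 15.8 and 471 CPM. The relatives Igtp and Irgm1 were higher in library 4 by log2 folds of 3.74 and 3.25 and reached 288 and 285 CPM, or 181 and 283 CPM without the doublet-scored cells and the cells rich in other lists. The antigen-processing genes Psmb9 and Tap1 were higher by 2.68 and 2.64. Ly6a (Sca-1) was at 349, 305, 497 and 2945 CPM. Ly6e was the exception among the abundant members, at 1682, 2264, 2068 and 1971 CPM. Genes well known as targets of type I interferon varied in level. Ifit1 was at 9.98, 0, 3.95 and 27.5 CPM, and Isg15 at 15.0, 17.0, 3.95 and 45.9 CPM. Ifit2 was not highest in library 4, at 9.98, 0, 0 and 6.12 CPM. Irf7, a factor of that response, was at 34.9, 42.4, 47.4 and 272 CPM, and Ifi27l2a at 449, 187, 738 and 1656 CPM. Bst2 (tetherin) and Oasl2 reached 321 and 110 CPM in library 4. Gbp4 was at 756 CPM in library 4, but 1 cell gave 139 of its 247 UMIs there, and without the doublet-scored cells and the cells rich in other lists it was at 354 CPM.

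Windows before the RefSeq starts of these genes were examined because most members were high together in library 4. RefSeq promoter windows (GRCm38.p6) were found for 18 of the 25 genes, and the 250 bases before the RefSeq start were searched on both strands. The letters GAAA, 2 bases of any kind and GAAA are of the type bound by interferon regulatory factors and ISGF3. They were found in windows of 11 of the 18 genes (61.1%), and in 2.98% of all 32851 windows. The letters TTCNNNGAA, of the type known as a gamma-activated site, were found in windows of 6 of the 18 genes (33.3%), and in 7.02% of all windows. The shares of genes and of windows differ in unit, as Ifit2, 1 of the 6, had windows at 2 RefSeq starts. A match is a description of letters and not a bound site. The genes were listed as interferon response genes, so their share of matches does not bear on the levels in library 4. GENCODE M21 places exon bases inside the windows of 9 of the 18 genes. These included 4 of the 11 genes with the first type of match and 3 of the 6 with the second. In the window of Gbp2, 61 bases lay past the GENCODE 5' end, the match among them. The windows of Irgm1, Psmb8, Psmb9 and Tap1 held annotated exon bases throughout. The 100 bases next to the RefSeq start are therefore given, 5' to 3', for 4 members whose stretch held no annotated exon base, with either match in capitals on whichever strand it lay. Gbp7, another guanylate-binding GTPase, was at 49.9, 8.48, 27.6 and 349 CPM in libraries 1 to 4.
Igtp, chr11:58199456-58199555, plus strand: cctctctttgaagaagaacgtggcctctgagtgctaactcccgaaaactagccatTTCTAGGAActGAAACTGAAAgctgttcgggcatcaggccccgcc
Gbp7, chr3:142530236-142530335, plus strand: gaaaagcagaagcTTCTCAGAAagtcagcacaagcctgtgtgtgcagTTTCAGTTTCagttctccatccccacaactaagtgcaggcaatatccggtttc
Isg15, chr4:156200819-156200918, minus strand: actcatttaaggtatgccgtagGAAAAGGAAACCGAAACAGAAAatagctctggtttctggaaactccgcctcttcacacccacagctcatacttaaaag
Ifi47, chr11:49076487-49076586, plus strand: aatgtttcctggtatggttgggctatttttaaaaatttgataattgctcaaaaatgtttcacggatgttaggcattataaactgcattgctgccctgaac
Igtp held both types within 45 bases of the start and Gbp7 both within 87 bases. Isg15, which had few UMIs, held 3 overlapping matches of the first type. The Ifi47 stretch, which lies within the longer gene Olfr56, held neither.

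**Figure D4:**
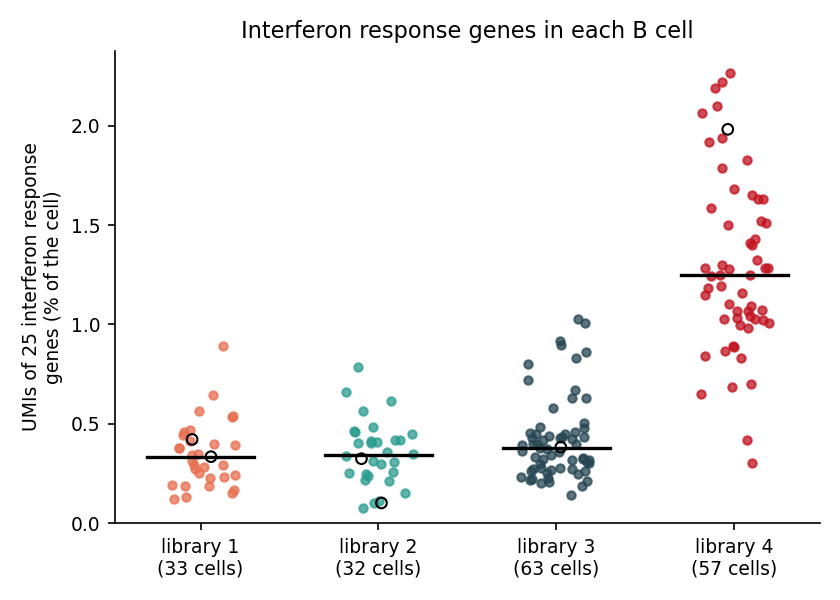
Percent of each B cell's UMIs from the 25 interferon response genes, by library, with 1 point for a cell, a black line at the median and open circles for the 6 cells rich in transcripts of another cell type. The medians are 0.334%, 0.344%, 0.380% and 1.25% in libraries 1 to 4, and the lowest cells of library 4 lie within the range of the other libraries.

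Interferon genes were detected in most B cells of library 4. As a share of UMIs the list made up 0.344%, 0.339%, 0.423% and 1.41% in libraries 1 to 4, and 1.34% in library 4 without the cell rich in fibroblast genes. Of 9 genes (Gbp2, Gbp4, Gbp7, Ifi47, Zbp1, Igtp, Irgm1, Tap1 and Psmb9), at least 3 had a UMI in 55 of 57 cells of library 4, and in 5 of 33, 1 of 32 and 6 of 63 cells of libraries 1 to 3. At 1000 UMIs per cell these counts were 34 of 57 in library 4 and 0 in each of the others. Transcripts of other cell types such as Lyz2 were detected about as widely there, so the counts do not show a response in each cell. Other classes were also higher in library 4. The list made up 0.769% of T cell UMIs, 1.81% of macrophage UMIs, 1.41% in dendritic cells and 2.29% in endothelial cells there, against 0.184% to 0.744% in the other libraries over these 4 classes. Gbp2 in library 4 was at 230 CPM in T cells, 1523 CPM in macrophages and 1247 CPM in endothelial cells.

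Several myeloid transcripts moved with the interferon genes in library 4. Lyz2 was at 59.9, 42.4, 158 and 1904 CPM in the B cells of libraries 1 to 4, and had a UMI in 91.2% of the B cells of library 4 and in 92.8% of its endothelial cells. Of the 10 macrophage genes, 6 were tested and 5 were called higher in library 4, against 7.32% of all genes. C1qa was at 0 by the rule, C1qb at 168 CPM and C1qc at 64.3 CPM there. The whole list summed to 0.340% of UMIs against 0.137% to 0.290% in the other libraries. Apoe made up most of the sum in those libraries and ran the other way, at 2051, 2772, 1030 and 934 CPM in libraries 1 to 4. NK cell genes were scarce but moved too, with 4 of 4 tested called higher there, beside the same 7.32%, and Gzma, the most abundant, at 27.5 CPM. Cxcl9, made by macrophages and endothelium, was at 995 CPM with a UMI in 86.0% of these B cells, and at 528 CPM in the 54 cells left without doublet-scored cells and cells rich in other lists. In these 54 cells Lyz2 was at 1331 CPM, and levels were set against the macrophages of the same library. The rule kept cells with 0 C1qa UMIs and so chose cells low in macrophage transcripts, and the ratios are a description from which nothing is read. C1qb was then at 5.50% of its macrophage level, Csf1r at 4.21%, Lyz2 at 19.6% and Cxcl9 at 16.3%. Gbp2 was at 58.2%, Zbp1 at 98.4%, Irgm1 at 100% and Ifit2 at 11.6%. The 25 interferon genes had a median of 58.3% (range 11.6 to 114%) and the 8 measured macrophage genes other than C1qa and Mrc1 had a median of 10.4% (2.77 to 66.5%, the highest for Apoe). The ranges overlapped, and other classes held these genes too, with Gbp4 at 2467 CPM in the endothelial cells of library 4. The part of free RNA in each level was not tested.

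Fcer2a divided the libraries in another way. It was at 260, 33.9, 186 and 33.7 CPM in libraries 1 to 4, with a UMI in 22 of 33, 2 of 32, 31 of 63 and 9 of 57 cells. Libraries 1 and 3 were high and libraries 2 and 4 low, and their counting intervals did not overlap. It was lower than in the other B cells by a log2 fold of -1.78 in library 2 and -2.12 in library 4. Cr2 was also higher in libraries 1 and 3, at 59.9, 8.48, 51.3 and 15.3 CPM on few UMIs. In T cells, macrophages, dendritic cells and endothelial cells Fcer2a stayed at or below 5.66 CPM in each library. Cxcr5 did not follow, at 89.8, 314, 237 and 159 CPM.

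**Figure D5:**
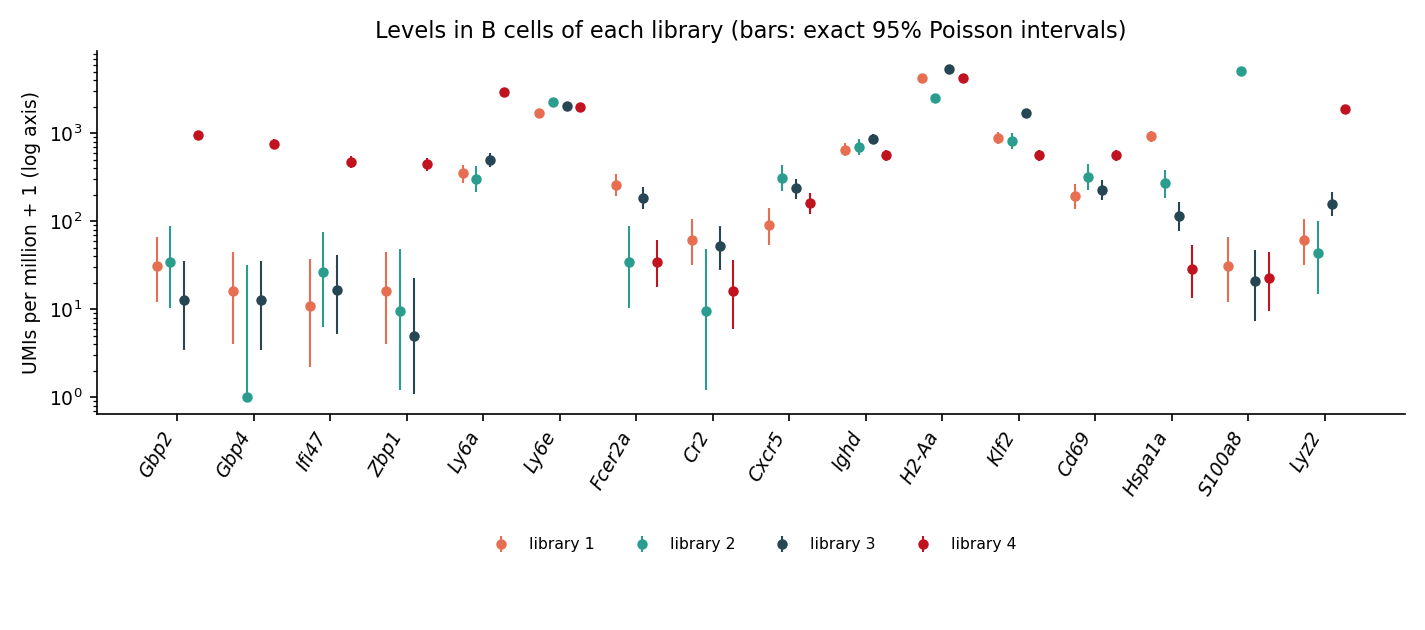
Levels of 16 genes in the B cells of libraries 1 to 4, in CPM plus 1 on a log axis, with bars for exact 95% Poisson intervals that cover counting error only. Interferon genes except Ly6e are highest in library 4, Fcer2a and Cr2 are higher in libraries 1 and 3, Hspa1a is highest in library 1, and the granulocyte gene S100a8 is highest in library 2.

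Other genes also differed between libraries. Klf2, a factor of resting and recirculating lymphocytes, was at 883, 822, 1693 and 560 CPM, highest in library 3 and lowest in library 4. Cd69 was at 195, 322, 229 and 566 CPM, highest in library 4 (log2 fold 1.23). Irf8 was at 359, 246, 268 and 839 CPM. Vpreb3 was at 140, 187, 201 and 58.2 CPM. Ly6d was lowest in library 2, at 432 CPM against 1028 to 1381 CPM in the others, and so were the class II genes Ciita and H2-Oa, at 33.9 and 59.3 CPM there. The heat shock gene Hspa1a was at 928, 271, 114 and 27.5 CPM and Hspa1b at 714, 288, 142 and 9.18 CPM. In library 1, 4 of the 8 heat shock genes were called higher, against 7.05% of all genes. The 8 genes summed to 0.492%, 0.393%, 0.239% and 0.306% of UMIs, while their median over cells was 0.217% to 0.247% in every library, so the difference lay in part of the cells. The 2 cells of library 1 that carried fibroblast genes held 13771 and 26011 of its 200356 B cell UMIs. The highest folds of library 1 were those of Myh11 (584 CPM against 11.5 CPM), the smooth muscle marker Mylk and Fbln1. The part of such cells in the heat shock values was not tested.

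Transcripts of non-lymphoid cells differed between libraries as well. In library 2 all 6 tested granulocyte genes were called higher, against 6.95% of all genes, and in library 3 the share called higher was 2.53%, led by the fibroblast genes Pi16, Cthrc1 and Postn, and library 3 held 1 of the fibroblast-rich cells. The granulocyte list was at 1.35% of UMIs in library 2, or 0.341% without the 2 granulocyte-rich cells, and at or below 0.00857% elsewhere. Its most abundant gene, S100a8, was at 5163 CPM there, and 1369 CPM without the 2 granulocyte-rich cells. In the same library 98.5% of endothelial cells held an S100a8 UMI. The fibroblast list was at 1.04%, 0.0365%, 0.537% and 0.280%, led over all B cells by Dcn, and at 0.113%, 0.0388%, 0.170% and 0.0233% without the 6 cells. The endothelial list, with Cdh5 at 0 by the rule, was at 0.365% in library 2 and 0.0533% to 0.114% elsewhere, led over all B cells by Fabp4. The red cell list was at 0.0479%, 0.0382%, 0.0142% and 0.00459%, and the cardiomyocyte list at 0.0424%, 0.0102%, 0.0359% and 0.00306%. The NK cell list was at 0.0101% in library 4 and at or below 0.00250% elsewhere. The T cell list was at 0.0254% of B cell UMIs, with Cd3e at 0 by the rule and Cd4 at 0. Its most abundant gene there was Cd2, at 204 CPM, which is also expressed in mouse B cells. The part of these transcripts in the other differences between libraries was not tested, except where values without the 6 cells are given.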

How the data were processed

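Cells of 2 allogeneic and 2 syngeneic grafts were profiled with 10x Chromium 3' chemistry. The authors deposited UMI counts for 30905 genes, made with Cell Ranger 3.0.0 on mm10 with Ensembl 92 annotation, and the submitters' notes also name CASAVA 1.8 and Seurat. Each UMI stands for 1 molecule, so levels were not divided by length. The members and gene lists were chosen with earlier results of these data known.

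Comparison gates were at least 2 UMIs of Cd3e with Cd3d or Cd3g (T cells), 2 of C1qa with C1qb or C1qc (macrophages), 1 of Flt3 with 2 of Cd209a, Clec9a and Xcr1 together (dendritic cells), and 2 of Cdh5 with Pecam1 (endothelial cells, which alone could hold Cd79a), each without the other classes' markers. Doublets were scored by simulated doublets among 50 neighbours, marking the top 5%. Named genes were list members (300 of 301 names found) or among the 10 highest or lowest folds. The printed windows and the 9 genes counted per cell were chosen after their values were seen. Some genes are not reported here. With 1 pooled sample no p-value was computed, and Dixon's criterion was applied over the 4 libraries only to mark values far from the others. Intervals are exact (Poisson for levels, Clopper-Pearson for shares of cells), and limits for 0 use 3 counts. The steps were checked on simulated data. Python 3.11.15, numpy 2.4.6, scipy 1.17.1 and scikit-learn 1.9.0 were used.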

Additional observations from a re-analysis of the deposited data

Results flagged for a closer look

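Of 5 results compared over the 4 libraries, 1 had a library far from the others by Dixon's criterion. The interferon response share of UMIs in B cells was 1.41% in library 4, and its gap to the nearest library was 0.922 of the whole range over the 4 libraries. Chance marks about 1 in 20 such groups, and the libraries are not labelled replicates of 1 group.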

How the results depend on the processing

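No paired analysis was possible because the barcodes carry no graft or replicate number and no comparison of groups was tested. Of the alternatives tried, 197 values of the main results stayed close to the reported one and 54 moved, and the cause was not tested. Among alternative values of named genes at least 2-fold apart, 1101 remained so, 20 fell under 2-fold and 0 reversed. Keeping cells under 10% mitochondrial UMIs gave 111 B cells (0.317%), class II 2.37% and interferon 0.855% of UMIs, and 1577, 1456 and 1483 genes apart in libraries 1, 2 and 3. More exclusion genes left 31 B cells (0.0695%), kappa 96.8%, Ighd 93.5%, class II 2.88% and interferon 0.429%. Allowing 1 UMI of an exclusion gene, which was chosen after seeing the data, gave 281 B cells (0.630%), class II 2.77% and interferon 0.801%. Leaving out cells rich in other lists, also chosen then, gave class II 2.96%. Cd79a from 1 UMI gave class II 2.51%, a denominator without hemoglobin, S100a8, S100a9 and immunoglobulin UMIs gave 2.68%, leaving out marked doublets gave interferon 0.717%, and thinning gave Ighd 56.2%. Leaving out each library in turn gave 122 to 153 B cells (0.351 to 0.486%), class II 2.42 to 2.75% and interferon 0.378 (without library 4) to 0.881%, and 698 to 1158 genes apart in library 1 and 479 to 743 in library 3, where the reported counts were 754 and 494. With 1 CPM added, 829, 1403 and 1448 genes were lower than in T cells, macrophages and dendritic cells, and 1255 and 805 apart in libraries 1 and 3. With 50 CPM added, 175 were higher and 181 lower than in T cells, 221 and 353 against macrophages, 275 and 377 against dendritic cells, and 193, 225, 145 and 252 apart in libraries 1 to 4. With no minimum share of cells, 1512, 2119, 1041 and 1470 were apart. Without weighting by library, 809 were lower than in T cells. Depth limits rare genes: a gene with 0 UMIs in all B cells could be at up to 3.34 CPM.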
